A study of Homo sapiens with 12 samples.

Results

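HIVEP1, DDIT4, CDC14A, ANK3 and DDX49 are 5 genes picked for their response to T427 and T408, a pair of anti-CD30 antibodies that otherwise moved few genes in L540 cells. They were chosen from these same arrays. In HIVEP1, DDIT4, CDC14A and ANK3 the change after T427 and T408 came to a large part of the change after the CD30 ligand. DDX49 was higher after both antibodies, while its probe was not detected after the ligand. The values of these genes after CD30L-Fc, T427 and T408 relative to untreated cells are therefore described without a test. The array names 18846 genes, of which these are 5. Of its 48780 probes, 12 carried one of the 5 symbols, and 5 of those 12, 1 for each gene, passed the filter on detection that left 8113 genes for testing.

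All values come from 1 established line, L540, which was derived from a Hodgkin lymphoma and has the receptor CD30 (TNFRSF8) on its surface. Illumina BeadChips were run on 6 groups, each with 2 biological duplicates, 12 arrays in all. The groups were untreated cells, cells given the CD30 ligand fused to an Fc part (CD30L-Fc, also labelled CD153), and cells given 1 of 4 antibodies to CD30. These were T104, T427, T408 and PW30, the last a mouse/human chimera, and every agent was used at 10 µg/ml. All cells were cultured for 16 h beforehand. The design text gives 8 h of treatment and calls the 24 h of the sample labels an error, while the growth protocol still gives 24 h. T408 of the labels, the name kept here, appears as T428 in the design text. Cells given an irrelevant antibody or Fc protein alone were not analysed here.

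CD30 is a receptor of the TNF receptor superfamily. When ligand or antibody clusters it, TRAF adaptors are recruited and NF-kB is activated through the canonical and the noncanonical pathway, which end in RELA and RELB complexes that bind kappaB sites. HIVEP1 encodes a large zinc finger protein that also binds kappaB sites. DDIT4 (REDD1) is a stress-induced inhibitor of mTORC1, the kinase complex that drives growth. CDC14A is a dual-specificity phosphatase related to the yeast enzyme that reverses CDK phosphorylation at mitotic exit. ANK3 encodes ankyrin-G, which ties membrane proteins to the spectrin skeleton, and DDX49 is a DEAD-box RNA helicase with a role in ribosome biogenesis.

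Of 10 fixed L540 and Hodgkin markers, 8 were detected on all 12 arrays, among them IRF4, GATA3 and IL2RA. The CD30 gene TNFRSF8 itself was detected on 11 arrays and differed from untreated cells by a log2 of -0.30 to 0.04 over the 5 treatments (SE 0.31, none called by limma). CD3D, CD3E and CD3G were detected on none, and the same held for all 10 fibroblast and epithelial markers. Of the other markers, 2 of 10 for T cells (CD2 and CD4), 1 of 7 for B cells (BLK) and 2 of 9 for monocytes and macrophages (CSF1R and CD68) were detected on every array. Before normalization, array medians ran from 129.9 to 136.3 on the 6 arrays of T427, T408 and PW30 and from 140.4 to 151.7 on the others. Duplicate arrays correlated across probes with Pearson's r of 0.990 to 0.992. In bulk samples, fewer cells that carry a transcript and less of it per cell cannot be told apart.

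Sequence upstream of the start was at hand in RefSeq (GRCh38.p14) for 3 of the 5 genes, with 7 start sites in all (4 of ANK3, 2 of CDC14A and 1 of DDIT4). None of these 7 windows of 250 bases held the NF-kB consensus on either strand, which 9.96% of 35116 such windows hold. This says only that the motif is not in these windows. ACGTG, 1 form of the hypoxia response core, was searched on both strands and was in 1 of the 7 and in 18.5% of all windows. The form GCGTG was neither counted nor marked. ACGTG lies 125 to 121 bases before the start of DDIT4, a gene known to respond to low oxygen. The window is shown because DDIT4 is the brightest of the 5 genes and the values below set it beside other hypoxia genes. It is the plus strand of chr10:72273674-72273923, with ACGTG in capitals.
DDIT4: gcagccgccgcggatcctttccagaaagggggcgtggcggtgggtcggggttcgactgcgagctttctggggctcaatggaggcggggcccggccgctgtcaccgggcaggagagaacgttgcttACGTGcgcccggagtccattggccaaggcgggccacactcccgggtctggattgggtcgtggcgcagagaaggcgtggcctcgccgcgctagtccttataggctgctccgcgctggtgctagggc

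HIVEP1 was detected on all 12 arrays. Its signal before normalization was 439.8 and 456.2 on the untreated arrays, 1002.9 and 1015.5 after CD30L-Fc, 929.9 and 968.0 after T104, and 836.3 and 747.7 after PW30. It was 674.6 and 658.4 after T427 and 658.7 and 692.7 after T408. The arrays formed 3 tiers without overlap: untreated lowest, T427 and T408 between, and CD30L-Fc, T104 and PW30 on top. On the normalized log2 scale the level was 8.22 ± 0.04 (SD, n = 2) in untreated cells, 9.12 ± 0.13 after T427 and 9.16 ± 0.03 after T408. It was 9.75 ± 0.04 after CD30L-Fc, 9.73 ± 0.03 after T104 and 9.59 ± 0.10 after PW30. The differences from untreated cells were 0.90 ± 0.12 (SE) for T427, 0.94 ± 0.12 for T408 and 1.53 ± 0.12 for CD30L-Fc. In folds these were 1.86, 1.92 and 2.88. T427 and T408 thus reached 58.7% and 61.7% of the log2 change after the ligand. HIVEP1 rose by 1.51 ± 0.12 after T104 (limma adjusted p = 3.88e-06) and by 1.37 ± 0.12 after PW30 (adjusted p = 9.46e-06). The arrays of T104 and PW30 were not used to choose the genes, but the untreated arrays were.

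DDIT4 was the brightest of the 5 genes, above 83.2% of all genes tested in untreated cells. Its signal was 3791.1 and 4322.3 on the untreated arrays, 6922.6 and 8027.3 after CD30L-Fc, 6668.3 and 6650.6 after T104, and 7191.8 and 7236.1 after PW30. It was 6248.1 and 4801.4 after T427 and 4986.9 and 5286.6 after T408. The T427 duplicates differed most in proportion, yet both lay above the untreated arrays and below those of the ligand, T104 and PW30. Normalized levels were 11.80 ± 0.10 in untreated cells, 12.40 ± 0.12 after T427, 12.33 ± 0.01 after T408, and 12.79 ± 0.17, 12.69 ± 0.02 and 12.92 ± 0.01 after CD30L-Fc, T104 and PW30. Differences from untreated cells were 0.60 ± 0.12 for T427, 0.53 ± 0.12 for T408 and 0.99 ± 0.12 for CD30L-Fc, or 1.51, 1.45 and 1.99 in folds. The antibodies reached 60.3% and 53.7% of the ligand change. DDIT4 rose by 0.89 ± 0.12 after T104 (limma adjusted p = 5.08e-04) and by 1.12 ± 0.12 after PW30 (adjusted p = 9.46e-05). The level after PW30 was above that after T104 by 0.23 ± 0.12, a difference that did not pass (limma adjusted p = 0.496).

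CDC14A had 6 probes, and the 1 that passed the filter, ILMN_1774930, was detected on all 12 arrays. Its signal was 384.2 and 403.0 on the untreated arrays, 655.3 and 701.2 after CD30L-Fc, 603.1 and 606.9 after T104, and 597.1 and 520.7 after PW30. It was 461.3 and 467.5 after T427 and 466.6 and 565.8 after T408. After normalization both T427 arrays and both T408 arrays lay above the untreated arrays and below those of the ligand, T104 and PW30. The levels were 7.95 ± 0.06 in untreated cells, 8.47 ± 0.18 after T427, 8.68 ± 0.15 after T408, and 9.06 ± 0.10, 8.97 ± 0.02 and 8.98 ± 0.14 after CD30L-Fc, T104 and PW30. Differences from untreated cells were 0.52 ± 0.13 for T427, 0.73 ± 0.13 for T408 and 1.11 ± 0.13 for CD30L-Fc, or 1.43, 1.66 and 2.16 in folds. The shares of the ligand change were 46.6% for T427 and 65.7% for T408. Without T427 replicate 1 the first was 58.1%, and without T427 replicate 2 it was 35.1%. CDC14A rose by 1.02 ± 0.13 after T104 (limma adjusted p = 3.62e-04) and by 1.03 ± 0.13 after PW30 (adjusted p = 3.51e-04).

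The other 5 CDC14A probes were dim. ILMN_1655983, annotated to another transcript, was detected on 1 array, of CD30L-Fc, where its signal reached 322.6 against 176.6 and 192.4 on the untreated arrays. In a fit without the filter on dim probes, it differed from untreated cells by 1.26 ± 0.25 after CD30L-Fc, 0.73 ± 0.25 after T104, 0.30 ± 0.25 after PW30, 0.58 ± 0.25 after T427 and 0.26 ± 0.25 after T408. Its intervals after CD30L-Fc, T104 and T427 did not hold 0, and the differences had the direction of the tested probe. The remaining 4 probes were detected on no array, with signals of 108.9 to 184.5. Their changes after CD30L-Fc lay between -0.11 and 0.34, each with a 95% interval that held 0. Over all 5 treatments the intervals of 3 of them held 0, among them ILMN_2244653, which is annotated to the same transcript as the tested probe, and those of ILMN_2324537 did not after T104 (0.70 ± 0.18) and T427 (0.42 ± 0.18). The CDC14A values given above are those of 1 probe of 6.

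ANK3 had 3 probes, of which ILMN_2390609 passed the filter. It passed through CD30L-Fc, T104, PW30 and T408, where both arrays detected it, and was detected on neither untreated array and on 1 of 2 T427 arrays. Its signal was 176.0 and 180.0 on the untreated arrays, 294.4 and 253.3 after CD30L-Fc, 275.4 and 255.0 after T104, and 254.0 and 259.8 after PW30. It was 233.3 and 216.0 after T427 and 275.5 and 248.6 after T408. All 10 arrays of treated cells lay above both untreated arrays, and after normalization the T408 arrays overlapped those of CD30L-Fc. Normalized levels were 5.75 ± 0.01 in untreated cells, 6.86 ± 0.03 after T427, 7.29 ± 0.30 after T408, and 7.18 ± 0.22, 7.23 ± 0.17 and 7.38 ± 0.09 after CD30L-Fc, T104 and PW30. The measured differences were 1.11 ± 0.16 for T427, 1.54 ± 0.16 for T408 and 1.43 ± 0.16 for CD30L-Fc, or 77.8% and 108% of the ligand change for the antibodies. Before normalization the mean signal after T408 (262.0) was below that after CD30L-Fc (273.9). The T408 arrays are among those with the lowest medians, and the part of the array background in these values was not tested.

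Because ANK3 was not detected in untreated cells, a fold there is only a lower bound, with the untreated level set at the dimmest detected probe of each array. On that basis ANK3 was at least 1.27-fold higher after T408 and at least 1.17-fold higher after CD30L-Fc, and T427 gives no bound above 1. The bound was 1.22-fold after T104 and 1.35-fold after PW30. The measured differences there were 1.48 ± 0.16 (limma adjusted p = 7.66e-05) and 1.63 ± 0.16 (adjusted p = 3.65e-05), and the p-values belong to these, not to the bounds. T104 and PW30 were among the treatments that let the probe through the filter, so these values are no independent support. With no background correction the differences were 0.66 after CD30L-Fc, 0.49 after T427 and 0.73 after T408, well under those above. The other ANK3 probes were detected on no array. ILMN_1661875, annotated to the same transcript as the tested probe, differed by 0.53 ± 0.36 after CD30L-Fc, 0.40 ± 0.36 after T427 and -0.15 ± 0.36 after T408. After T104 it differed by 0.60 ± 0.36 and after PW30 by -0.31 ± 0.36, and each of its 95% intervals held 0. The interval after PW30, -1.10 to 0.48, does not hold the 1.63 of the tested probe. ILMN_1651943 differed by -0.04 to 0.17 over the 5 treatments. The ANK3 values rest on 1 dim probe of 3.

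**Figure D1:**
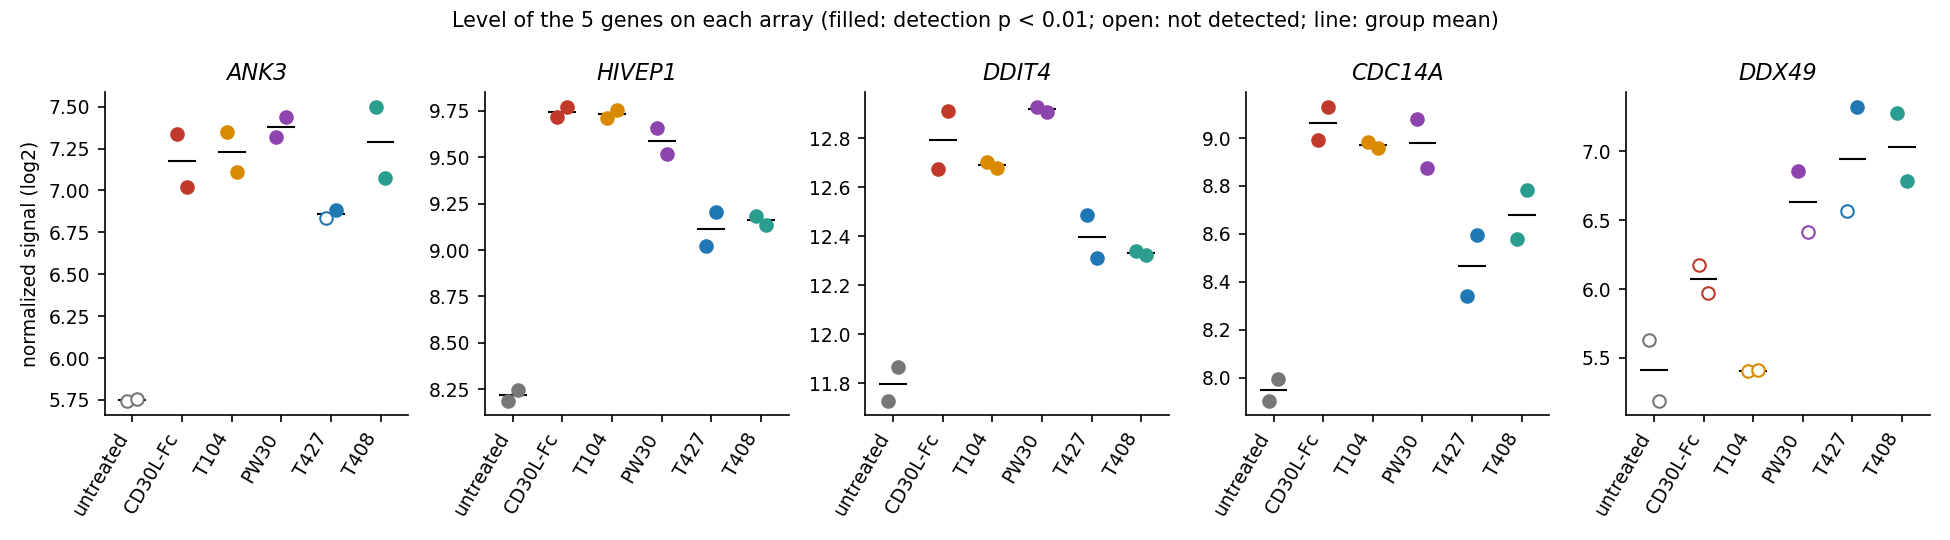
Normalized log2 signal of the tested probe of each gene on each of the 12 arrays, by group; filled points were detected (p below 0.01), open points were not, and lines are means of 2 arrays. HIVEP1, DDIT4 and CDC14A show T427 and T408 between untreated cells and the other treatments, ANK3 reaches the ligand level after T408, and DDX49 is highest after T427 and T408; the vertical scales differ and do not start at 0.

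**Figure D2:**
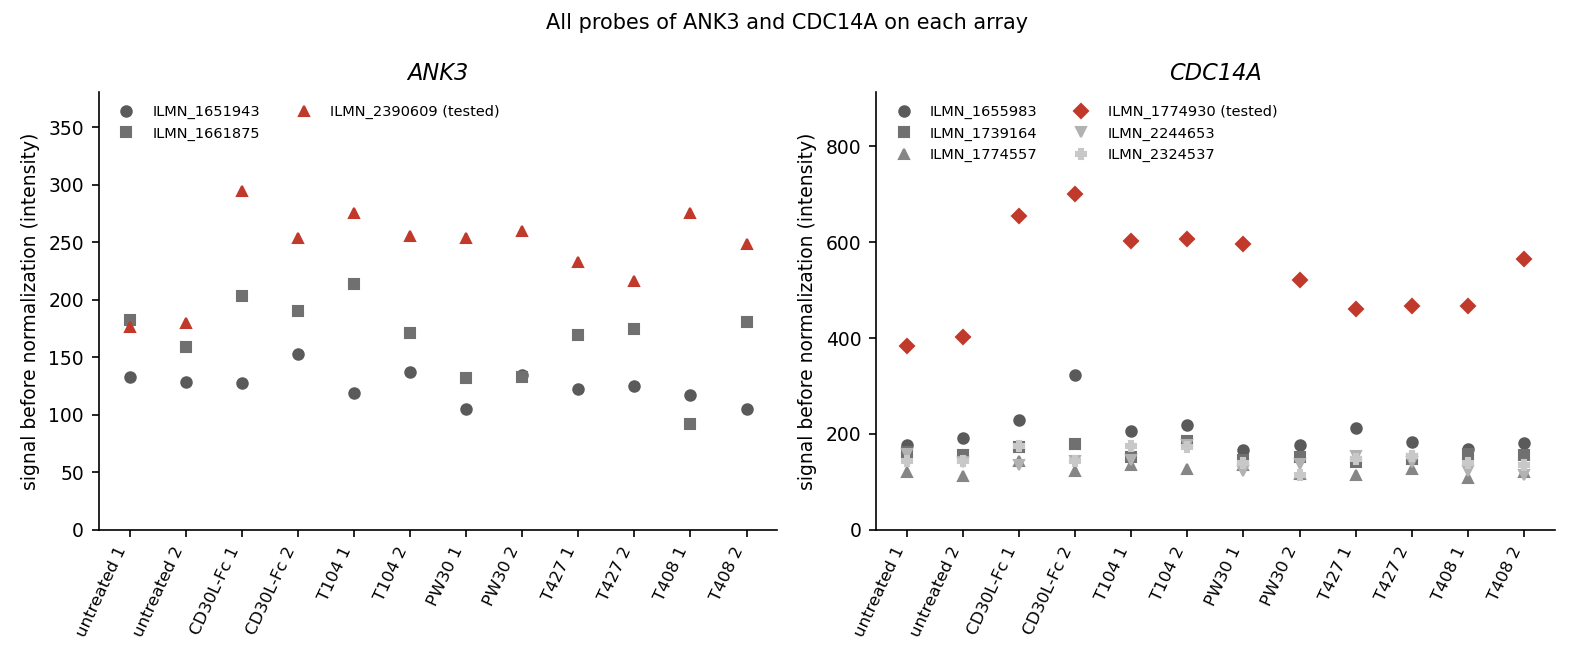
Signal before normalization of all 3 ANK3 probes and all 6 CDC14A probes on each array. The tested probe of each gene is in red, and the grey probes were detected on no array except ILMN_1655983 of CDC14A, which was detected on 1 CD30L-Fc array (322.6).

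DDX49, measured by 1 probe, had a different order of groups. Its signal was 169.2 and 143.9 on the untreated arrays, 200.8 and 181.7 after CD30L-Fc, 146.9 and 148.8 after T104, and 215.5 and 181.8 after PW30. It was 212.0 and 258.0 after T427 and 250.4 and 222.4 after T408. Of the other arrays only PW30 replicate 1 reached the range of T427 and T408, and the T104 arrays lay within the untreated range. The probe passed the filter only through T408, the 1 group in which both arrays detected it. It was detected on 1 of 2 arrays after T427 and after PW30 and on none of the untreated, CD30L-Fc or T104 arrays. Normalized levels were 5.41 ± 0.31 in untreated cells, 6.07 ± 0.15 after CD30L-Fc, 5.41 ± 0.00 after T104, 6.64 ± 0.31 after PW30, 6.94 ± 0.54 after T427 and 7.03 ± 0.35 after T408.

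The measured DDX49 differences from untreated cells were 1.54 ± 0.25 for T427 and 1.62 ± 0.25 for T408. For T408 the bound was at least 1.06-fold, and for T427 and PW30 no bound above 1 could be given. With no background correction they were 0.73 and 0.77. The T427 value was 1.16 without T427 replicate 2 and 1.91 without replicate 1. For CD30L-Fc the difference was 0.66 with a 95% interval of 0.12 to 1.21. The value after the ligand was thus also above that of untreated cells, but both groups lay below detection, so no fold is given. After T104 the difference was 0.00 with an interval of -0.55 to 0.55 (limma adjusted p = 0.998). After PW30 the measured difference was 1.23 ± 0.25 (adjusted p = 0.00754), between untreated arrays that did not detect the probe and PW30 arrays of which 1 did. The probe was in the test only because T408, a group that chose it, let it through the filter, so this value is no independent support. It did not pass without untreated replicate 2 (adjusted p = 0.0625) or without PW30 replicate 1 (adjusted p = 0.0744).

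The 6 arrays on which DDX49 was highest after normalization are the 6 with the lowest median signal, those of T427, T408 and PW30. Relative to the median of its own array, the DDX49 signal was 1.14 and 0.949 on the untreated arrays, 1.33 and 1.26 after CD30L-Fc and 1.05 and 1.05 after T104. It was 1.64 and 1.40 after PW30, 1.56 and 1.98 after T427 and 1.93 and 1.68 after T408. The groups kept their order with this scaling, with untreated and T104 arrays level at the bottom. The part of the array background in these values was not tested. The neighbouring gene COPE differed from untreated cells by -0.07 to 0.15 over the 5 treatments (SE 0.13, none called), and HOMER3, on the other side, was detected on no array.

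**Figure D3:**
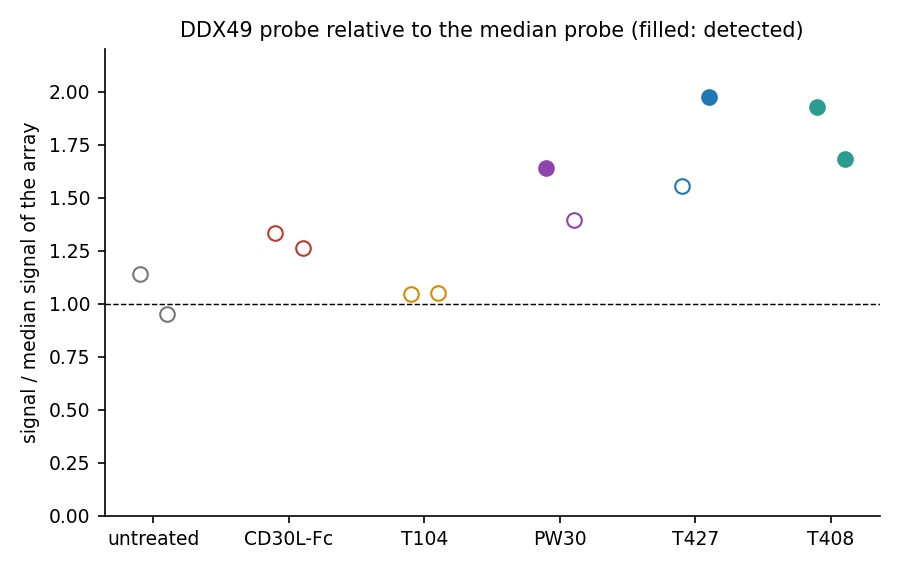
Signal of the DDX49 probe divided by the median signal of all probes on the same array, for the 2 arrays of each group; filled points were detected and the dashed line marks the median probe. T427 and T408 lie at 1.56 to 1.98, PW30 at 1.40 and 1.64, and untreated and T104 arrays at 0.949 to 1.14.

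T104 and PW30, the treatments that did not serve to choose the genes, can be tested with the limit that the untreated arrays are shared with the choice. HIVEP1, DDIT4 and CDC14A, the 3 genes detected on every array, rose after both T104 and PW30, where 5.92% and 6.27% of 8113 genes rose. ANK3 and DDX49 entered the test only through groups in which they were high and are not counted with them. ANK3 passed after T104 and PW30 and DDX49 after PW30, while DDX49 did not pass after T104. The median log2 change of all genes was -0.04 after T104 and -0.05 after PW30. PW30 arrays share their low medians with those of T427 and T408, and with median scaling in place of quantiles 362 genes rose and 569 fell after PW30, against 509 and 389. The 443 genes raised by CD30L-Fc, from which 4 of the 5 were picked, reached a median of 99.3% of the ligand change after T104 and 94.2% after PW30. At least 50% of it was reached by 428 of the 443 after T104 and by 409 after PW30. A rise of HIVEP1, DDIT4 and CDC14A after T104 and PW30 therefore follows in large part from the choice and is no separate result.

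T104 against PW30 is the comparison here that shares no array with the choice, though ANK3 and DDX49 entered it only through the filter described above. Of the 5 genes, 0 passed limma's test, against 0.320% of all genes. An unadjusted p below 0.05 was reached by 1 of the 5, beside 977 of all 8113 genes. Of the 5 it was DDX49, lower after T104 than after PW30 by a log2 difference of -1.23 ± 0.25, with a 95% interval of -1.77 to -0.68 (adjusted p = 0.0797). The DDX49 probe was in the test only through T408, a group that chose it, so this value is no independent support. It was detected on no T104 array and on 1 of 2 PW30 arrays, and no bound above 1 could be given. For HIVEP1 the difference was 0.14 with an interval of -0.11 to 0.40, for DDIT4 -0.23 (-0.50 to 0.04), for CDC14A -0.01 (-0.30 to 0.29) and for ANK3 -0.15 (-0.50 to 0.20). With 2 arrays a group, a difference of any size within these intervals remains possible.

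T427 and T408 themselves can be set side by side as a description. ANK3 was lower after T427 than after T408 by a log2 difference of -0.43 (95% interval -0.78 to -0.08). Its probe was detected on 1 of 2 T427 arrays. Between T427 and T408 limma called 0 of all 8113 genes, and 386 had an unadjusted p below 0.05. For the other genes the difference was -0.05 (-0.30 to 0.21) for HIVEP1 and 0.07 (-0.20 to 0.33) for DDIT4. It was -0.21 (-0.51 to 0.08) for CDC14A and -0.09 (-0.63 to 0.46) for DDX49, and each of these intervals held 0.

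**Figure D4:**
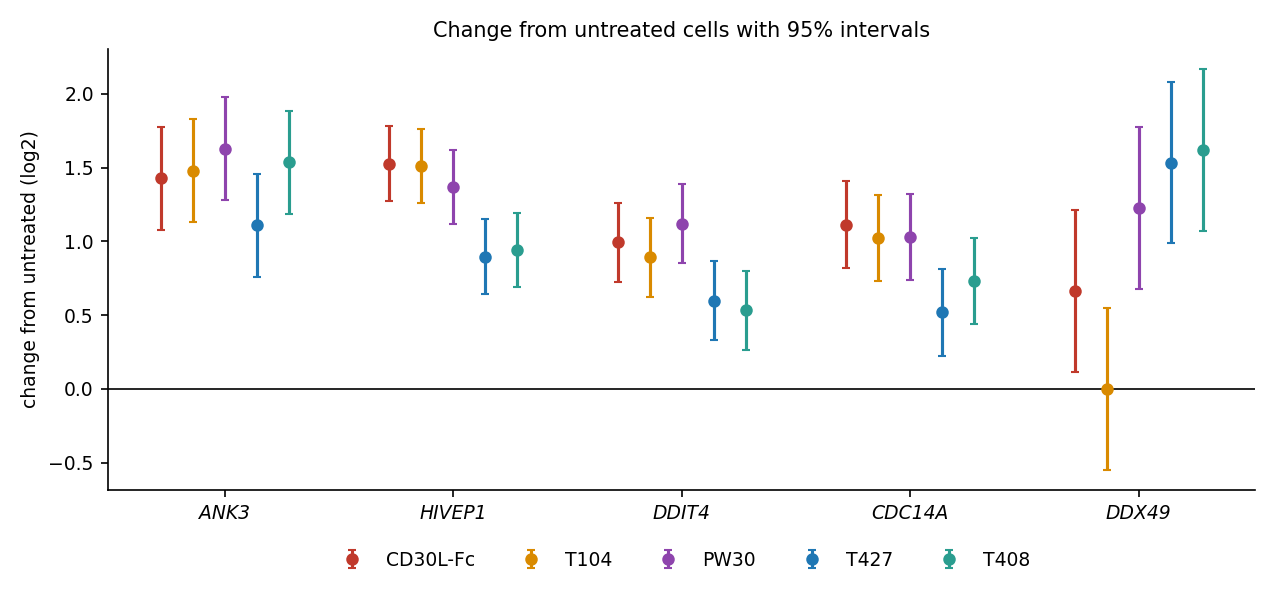
Log2 difference from untreated cells for the 5 genes after each of 5 treatments; points are differences of means of 2 arrays and bars are 95% intervals from limma. In HIVEP1, DDIT4 and CDC14A the T427 and T408 points lie below those of CD30L-Fc, T104 and PW30, while DDX49 has its largest values after T427 and T408 and 0.00 after T104.

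The share of the ligand change is the quantity that chose the genes, so its place among other genes is given only to show how far the choice went. CD30L-Fc raised 443 genes. Their median share was 26.0% after T427 (quartiles 12.5% and 41.4%) and 27.3% after T408 (quartiles 13.6% and 41.7%), and 64 and 69 of them reached 50%. By the mean of both shares ANK3 (92.7%) and NFE2L3, a CNC-bZIP transcription factor (92.5%), stood highest. The ANK3 share divides differences from untreated arrays that did not detect it, of which only the bounds above hold, so its size and place cannot be read exactly. HIVEP1 stood in place 24 with 60.2%, DDIT4 in place 33 with 57.0% and CDC14A in place 36 with 56.2%. Genes with similar shares stood between and around them, such as ANXA4, an annexin (62.8%, place 23), and OPTN, which encodes the autophagy receptor optineurin (54.4%, place 37). Leaving out 1 array at a time, the share after T427 ran from 70.0% to 87.5% for ANK3, from 52.8% to 64.7% for HIVEP1 and from 51.5% to 69.2% for DDIT4. After T408 it ran from 92.7% to 123% for ANK3, from 60.2% to 63.2% for HIVEP1, from 48.1% to 60.9% for DDIT4 and from 56.5% to 74.9% for CDC14A. DDX49 is not among the 443 genes.

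**Figure D5:**
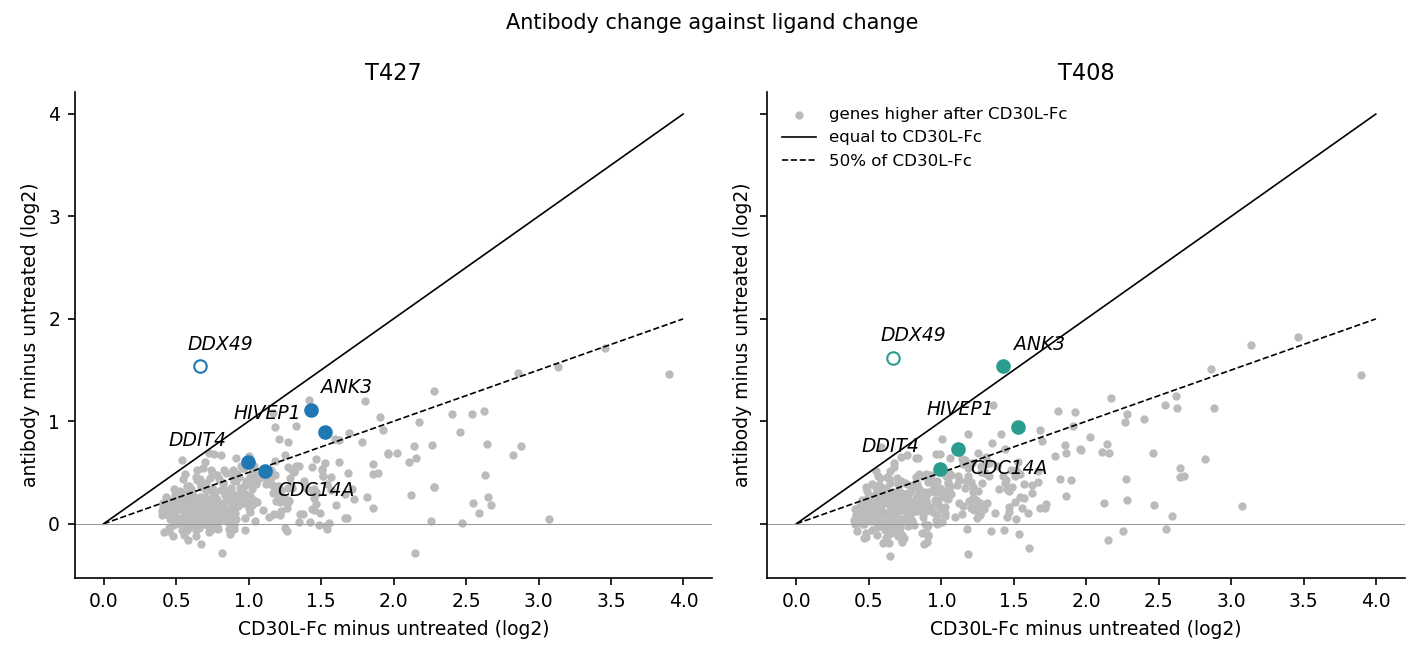
Log2 change after T427 (left) and T408 (right) against the log2 change after CD30L-Fc; grey points are the 443 genes raised by CD30L-Fc, the solid line marks equal changes and the dashed line 50%. ANK3 lies near the solid line, HIVEP1, DDIT4 and CDC14A near or above the dashed line, and DDX49 (open, not among the 443) above the solid line.

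Other genes followed some of the 5 over the 12 arrays, which fall into 6 treatments and share the normalization. For HIVEP1 the highest Pearson's r were with the chemokine receptor gene CXCR4 (0.984), IL4I1, a secreted amino acid oxidase (0.983), and TTF2, a transcription termination factor (0.983). CXCR4 differed from untreated cells by 1.80 after CD30L-Fc, 1.19 after T427 and 1.10 after T408. For DDIT4 they were the NF-kB subunit gene NFKB2 (0.977), the lipid receptor gene GPR132 (0.976) and ANKRD46 (0.972). For CDC14A they were SAMD9L (0.980), an interferon-inducible gene, HIVEP1 (0.974) and TTF2 (0.972), and for ANK3 the apolipoprotein L gene APOL6 (0.887), the farnesyltransferase subunit gene FNTA (0.884) and HIVEP1 (0.881). Among the 5 themselves, r lay between 0.831 and 0.974 for HIVEP1, DDIT4, CDC14A and ANK3, and between 0.172 and 0.478 for DDX49 with each of the others. HIVEP1, DDIT4, CDC14A and ANK3 were chosen for a like response on most of these arrays and DDX49 for another. These r therefore follow in large part from the choice and are no separate result. The genes nearest to DDX49 were the interferon receptor gene IFNAR2 (0.820), the proteasome subunit gene PSMC4 (0.820) and SMG8 (0.807), which acts in nonsense-mediated decay. IFNAR2 differed from untreated cells by 0.37 after T427, 0.35 after T408 and 0.38 after PW30, and by -0.08 after CD30L-Fc and -0.18 after T104.

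Relatives and pathway partners of HIVEP1 were described from a list of other proteins that bind kappaB sites. Of 5 measured, 2 rose after T427 and 2 after T408, where 0.320% and 0.271% of all genes rose. They were RELB (1.53 ± 0.11, limma adjusted p = 1.16e-04, and 1.75 ± 0.11, adjusted p = 2.63e-05) and NFKB2 (1.29 ± 0.13 and 1.07 ± 0.13). After CD30L-Fc 3 of 5 rose, against 5.46% of all genes, and NFKB1, the p50 subunit gene, was the further one (0.75 ± 0.13). After T104 3 of 5 rose, by 3.09 for RELB, and after PW30 2 of 5, by 3.31 for RELB (SE 0.11). The median change of the list was 0.20 after T427, 0.25 after T408 and 0.75 after CD30L-Fc, beside -0.01, -0.02 and -0.04 over all genes. The HIVEP1 paralog HIVEP2 differed by -0.56 ± 0.20 after T427, -0.37 ± 0.20 after T408 and 0.23 ± 0.20 after CD30L-Fc, none of which passed, and HIVEP3 was detected on no array.

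DDIT4 was set beside 24 measured genes of the mTORC1 pathway, of which 0 passed after T427 or T408 by limma (1 with an unadjusted p below 0.05 after each), where 0.333% and 0.271% of all genes passed in either direction. Of all 8113 genes, 609 had an unadjusted p below 0.05 after T427 and 648 after T408. Of all genes 5.46% rose and 2.87% fell after CD30L-Fc, 5.92% and 3.53% after T104, and 6.27% and 4.79% after PW30. In the list, after CD30L-Fc and T104 the 1 called gene was TBC1D7, a subunit of the TSC complex, which fell by 0.49 ± 0.13 and 0.59 ± 0.13. After PW30 it was RRAGC, a Rag GTPase that brings mTORC1 to lysosomes, which fell by 0.69 ± 0.19 (limma adjusted p = 0.0350). DDIT4L, the paralog, was detected on no array. Of 21 hypoxia response genes, 0 passed after T427 or T408 (1 with an unadjusted p below 0.05 after each). After CD30L-Fc 2 rose and 1 fell, after T104 1 rose and 2 fell, and after PW30 2 rose and 2 fell. The glycolytic regulator gene PFKFB3 (0.59 ± 0.13) and the collagen hydroxylase gene P4HA1 (0.73 ± 0.19) were higher after CD30L-Fc, and ANKRD37, a HIF target, was lower (-0.79 ± 0.14).

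Of 19 genes of the ATF4 and integrated stress response, which also induces DDIT4, 0 passed after T427 or T408 by limma (4 and 2 with an unadjusted p below 0.05). ATF3, a stress-induced transcription factor, rose by 1.03 ± 0.12 after CD30L-Fc (adjusted p = 2.07e-04), 1.07 ± 0.12 after T104 and 1.01 ± 0.12 after PW30. CEBPG rose after T104 (0.61 ± 0.14) and PPP1R15A, which reverses eIF2 phosphorylation, after PW30 (0.82 ± 0.17). CTH, an enzyme of cysteine synthesis, fell in all 3 treatments, by 0.52, 0.47 and 0.50 with SE 0.13. Of 12 glucocorticoid and FOXO targets, 0 passed after T427 or T408 (1 with an unadjusted p below 0.05 after each). After CD30L-Fc, T104 and PW30 3 rose in each, and 1, 1 and 2 fell, where 5.46%, 5.92% and 6.27% of all genes rose and 2.87%, 3.53% and 4.79% fell. CCNG2, an atypical cyclin not detected in untreated cells, rose at least 1.31-fold, 1.39-fold and 1.35-fold. The transcription factor gene FOXO3 rose by 0.76 ± 0.14 after CD30L-Fc and 0.78 ± 0.14 after T104. The kinase gene SGK1 fell after CD30L-Fc (limma adjusted p = 8.21e-04), by 0.81 ± 0.15 after T104 and by 1.05 ± 0.15 after PW30.

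Of 26 cell cycle phosphatase and mitotic exit genes set beside CDC14A, 0 passed after T427, T408, CD30L-Fc or PW30 by limma (1 had an unadjusted p below 0.05 after T427 and 1 after T408). After T104 the 1 called gene was CDC25B, a phosphatase that activates CDK1, which fell by 0.44 ± 0.12 (adjusted p = 0.0452). The paralog CDC14B, detected on 2 arrays at most, differed by -0.72 ± 0.27 after CD30L-Fc, -0.46 ± 0.27 after T427 and 0.27 ± 0.27 after T408, none called. Of 10 ankyrin and spectrin skeleton genes set beside ANK3, 0 passed after T427, T408 or PW30, and 0 had an unadjusted p below 0.05 after T427 or T408. TMOD1, an actin-capping tropomodulin, rose after CD30L-Fc (0.55 ± 0.15, adjusted p = 0.0386) and T104 (0.57 ± 0.15). ANK1 differed by -0.22 ± 0.17 after CD30L-Fc and -0.35 ± 0.17 after T427, neither called, and ANK2 was detected on no array.

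Of 37 genes of nucleolar DEAD-box helicases and ribosome biogenesis set beside DDX49, 0 passed after T427 or T408 by limma (1 and 2 with an unadjusted p below 0.05). Their median change was -0.04 after T427 and -0.03 after T408. DDX47, a helicase of the same family, rose by 0.44 ± 0.12 after CD30L-Fc and 0.47 ± 0.12 after T104. RRP12 fell by 0.58 ± 0.13 after CD30L-Fc. After PW30 2 rose and 2 fell, where 6.27% and 4.79% of all genes did. Among them UTP4 fell by 0.42 ± 0.11, and POLR1C, a subunit of RNA polymerases I and III, fell by 0.48 ± 0.13. UTP20 was called higher (limma adjusted p = 0.0231), but the untreated arrays did not detect it and no bound above 1 could be given.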

How the data were processed

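Scans were processed with GenomeStudio, per the submitters' processing notes, or BeadStudio, per the series design text. Neither source states a version. The table deposited before normalization has, per the file headers, a signal intensity and a detection p-value for each probe on each array. The authors' processed table holds linear intensity without background subtraction, with column medians of 138.9 to 139.0, and was read as quantile-normalized. Signals were background-corrected with normexp (negative control moments inferred from detection p), offset by 16, quantile-normalized and converted to log2 by the neqc method (R 4.3.3 with limma 3.58.1). Probes were named through the supplied annotation, with symbols updated by Entrez identifier against RefSeq (28043 of 28082). A probe entered the fit if some group had a detection p under 0.01 on both of its arrays and no other such probe of the gene was brighter. The model was fitted with 6 group means over 12 arrays (lmFit, eBayes, two-sided). P-values were adjusted by Benjamini-Hochberg over 8113 genes and called below 0.05. Intervals are at 95%. The fit was checked on simulated data with independent normal noise and shifts planted in the T104 group only. These data held no differences in background between arrays, so the check does not bear on such differences. The number of arrays limits the precision, and 2 against 2 arrays allow no useful exact test.

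The 5 genes and the 8 related lists were chosen with earlier results of these data known. Named were the 5 genes, the 3 most correlated genes of each, paralogs, and up to 3 called genes per list and comparison with the smallest p; COPE, HOMER3 and the genes neighbouring the 5 by share were added after their values were seen. Replicate numbers do not pair the arrays: the correlation of duplicate differences between groups ran from -0.076 to 0.107 over 15 pairs of groups.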

Additional observations from a re-analysis of the deposited data

How the results depend on the processing

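Of the 738 repeats of the 38 values of the 5 genes under the alternatives, 686 kept their direction and stayed within the spread or on their side of the threshold, 7 changed sign, 41 moved beyond the spread between duplicates, 2 lost a call and 2 gained one. Many repeats only left out an array of a group outside the comparison, or changed only the filter, the variance prior or the block. Those could not move the difference itself, so the 686 are no measure of robustness. The changes of sign were in 2 differences near 0 that passed in no setting. CDC14A in T104 against PW30 (-0.01) was 0.033 with median scaling and ran from -0.11 to 0.0945 when 1 array was left out, including 0.0076 without T104 replicate 2. DDX49 after T104 (0.00) was 0.0126 with no background correction and 0.0125 with the authors' values and ran from -0.22 to 0.22 when 1 array was left out. The calls lost were those of DDX49 after PW30 given above. The calls gained were DDX49 in T104 against PW30 without either T427 array (adjusted p = 0.0478, range 0.0478 to 0.350). With no background correction or with the authors' processed values, changes of dim probes shrank, that of ANK3 after CD30L-Fc from 1.43 to 0.66. ANK3 and DDX49 were not tested when detection on all 12 arrays was asked. The fit of the other 7 ANK3 and CDC14A probes was added after seeing the data, since none passed the filter.

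Counts of called genes depended more on the settings; causes were not tested. With only the 4 arrays of the 2 groups these were 402 (from 676) after CD30L-Fc, 487 (from 766) after T104, 490 (from 898) after PW30, 5 (from 27) after T427, 9 (from 22) after T408 and 1 (from 26) for T104 against PW30. With no filter on dim probes, which tests 18846 genes, they were 500 after T104, 546 after PW30, 10 after T427, 13 after T408 and 2 for T104 against PW30. For T408 and for T104 against PW30 they were 34 and 63 with no background correction, 34 and 63 with the authors' values and 41 and 73 with a trend in the variance prior, and median scaling gave 16 for T104 against PW30 (13 higher and 3 lower, from 18 and 8). With the replicate block counts were 652 after CD30L-Fc, 696 after T104, 831 after PW30, 23 after T427, 20 after T408 and 19 for T104 against PW30, and no call of the 5 genes changed; the numbers do not pair the arrays. Leaving out 1 array gave 367 to 565 after CD30L-Fc, 425 to 560 after T104, 560 to 712 after PW30, 8 to 22 after T427, 14 to 31 after T408 and 0 to 13 for T104 against PW30.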
